A study of Mus musculus with 8 samples.

Results

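Reelin and its receptor pathway was described in undifferentiated pleomorphic sarcoma (UPS), a soft tissue sarcoma, through 5 genes of 26667 in the counts table: the ligand Reln, the receptors Vldlr and Lrp8 and the adaptors Dab1 and Dab2. The genes were taken by symbol. Reln was chosen by its level in the comparison of KPH2 with KP in these same tumours, so its difference between genotypes is given as a description, without a test, while the receptors and adaptors were taken by name as its partners. RNA was sequenced from formalin-fixed, paraffin-embedded tumours, with 1 library per tumour, from 4 KP and 4 KPH2 mice of a mixed 129/C57BL/6 background. KP mice carried Trp53 fl/fl among their engineered alleles, and KPH2 mice carried the same alleles with Epas1 fl/fl, the floxed gene of HIF-2α. Tumours of both genotypes were started by adenovirus expressing Cre (Ad-Cre) injected into hind limb muscle of mice aged 8 weeks or more, of both sexes, so the engineered changes of the KP model, Trp53 loss included, were shared by all tumours and Epas1 stayed intact in host cells that the virus did not reach. Mice were killed 7 weeks after Ad-Cre or when the tumour had grown to the permitted limit, and the sources used here do not say which applied to each sequenced tumour.

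Reelin is a large secreted glycoprotein best known for positioning neurons in the developing cortex. It binds the lipoprotein receptors VLDLR and APOER2, the latter encoded by Lrp8, whose intracellular tails hold Dab1. On binding, Src family kinases phosphorylate Dab1, which passes the signal to PI3 kinase, Crk and Nck adaptors and the cytoskeleton. Dab2 is a relative of Dab1 that links the tails of the same receptor family to clathrin and serves in endocytosis. Outside the brain, reelin is made by lymphatic endothelium among other cells.

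Whole-library counts ranged from 6463221 to 13155510, and the level that 3 counts would give, used as the limit of detection, ranged from 0.223 to 0.445 CPM (counts per 1000000 of the TMM-scaled library). KPH2 tumour 1 stood apart: it is absent from the authors' table for 7 tumours, and the study dropped 1 knockout tumour that it took for a technical outlier. Comparisons therefore used KP tumours 5 to 8 and KPH2 tumours 2 to 4, and the members and the called pathway genes are also given with all 8. Epas1 (chromosome 17, GRCm38.p6) was measured at 59.2, 83.2, 86.9 and 84.1 CPM in KP tumours 5 to 8, at 53.4, 37.7 and 42.5 CPM in KPH2 tumours 2 to 4 and at 32.6 CPM in KPH2 tumour 1. All 4 KPH2 tumours were below every KP tumour, and the log2 fold change was -0.81 (SE 0.19, adjusted p = 0.0742, edgeR quasi-likelihood test), which missed the threshold of 0.05, as it did with all 8 (-0.91, adjusted p = 0.117, edgeR). The count covers the whole gene, including exons outside any deleted part and RNA from host cells. Xist was high in KP tumour 8 and KPH2 tumour 4, at 1660 CPM or more, and at most 3.11 CPM in the other 6, so each genotype had 1 such tumour.

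The windows before the start sites of Reln and Dab2 are shown because they are the member promoters that hold the short core letters bound by HIF proteins, ACGTG, and because the tumours differ in the floxed gene of a HIF subunit. Each runs 5′ to 3′ over the 250 bases before a RefSeq start site (GRCm38.p6), with ACGTG and GCGTG in capitals on either strand, so that their reverse complements CACGT and CACGC are also in capitals. The Reln window is chr5:22344706-22344955 on the minus strand and the Dab2 window is chr15:6386498-6386747 on the plus strand.
Reln: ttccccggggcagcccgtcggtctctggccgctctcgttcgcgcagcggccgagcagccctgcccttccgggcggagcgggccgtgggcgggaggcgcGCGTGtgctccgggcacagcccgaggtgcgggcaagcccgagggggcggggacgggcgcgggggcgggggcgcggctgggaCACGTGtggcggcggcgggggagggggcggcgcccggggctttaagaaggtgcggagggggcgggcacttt
Dab2: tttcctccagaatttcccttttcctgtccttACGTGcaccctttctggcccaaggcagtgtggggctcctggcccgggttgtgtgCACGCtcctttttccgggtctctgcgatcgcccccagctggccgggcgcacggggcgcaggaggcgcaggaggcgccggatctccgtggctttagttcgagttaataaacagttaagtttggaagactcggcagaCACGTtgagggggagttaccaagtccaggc
In Reln the palindrome CACGTG gave 2 overlapping ACGTG matches, at 71 and 70 bases before the start, and GCGTG lay at 152 bases. In the Dab2 window ACGTG lay at 219 and 30 bases and GCGTG at 165 bases before the start. A second Dab2 window and the windows of Vldlr (2) and Dab1 (2) held neither, and 1 of 3 Lrp8 windows held GCGTG, though no GENCODE start lies within 100 bases of any of these 3. These letters are common: among 32851 RefSeq promoter windows of the same length, 16.6% held ACGTG, 28.2% held GCGTG and 38.6% held either. The Reln window was 80% G and C, against a median of 52.4% over all windows. A match is a description of the letters and not a binding site.

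Reln (Entrez 19699) spans 460 kb on the minus strand of chromosome 5 (21884454 to 22344705). Its level in KP tumours 5 to 8 was 16.1, 29.9, 9.04 and 10.8 CPM, from 217, 211, 61 and 143 counts. In KPH2 tumours 2 to 4 it was 461, 467 and 493 CPM, from 5121, 4664 and 4374 counts. KPH2 tumour 1 had 65 counts, or 5.19 CPM (95% exact Clopper-Pearson interval 4.01 to 6.62, counting error only), below every other tumour of either genotype. The KP mean was 16.5 ± 9.43 CPM (SD, n = 4) and that of KPH2 tumours 2 to 4 was 474 ± 17.1 (SD, n = 3), a ratio of 28.8. The log2 fold change was 4.85 (SE 0.41). With KPH2 tumour 1 included the KPH2 mean became 356 ± 235 CPM (SD, n = 4) and the log2 fold change 4.44 (SE 1.10), and the groups overlapped. The 3 high tumours lay close together, with a coefficient of variation of 3.60% against 57.3% among the KP tumours. Because these are bulk tumours, a change in the number of cells that make Reln cannot be told apart from a change in RNA per cell. On the authors' own rlog scale over 7 tumours, where low counts are shrunk, KP tumours lay at 7.94 to 8.74 and KPH2 tumours 2 to 4 at 11.40 to 11.47. Exons of Reln overlap those of the antisense gene Gm10475, and the strand setting of the authors' counting is not given in the sources used here. Over all genes tested, 8.73% had every KPH2 tumour of the 3 above every KP tumour, and since Reln was chosen on this contrast nothing is read from its place among them.

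**Figure D1:**
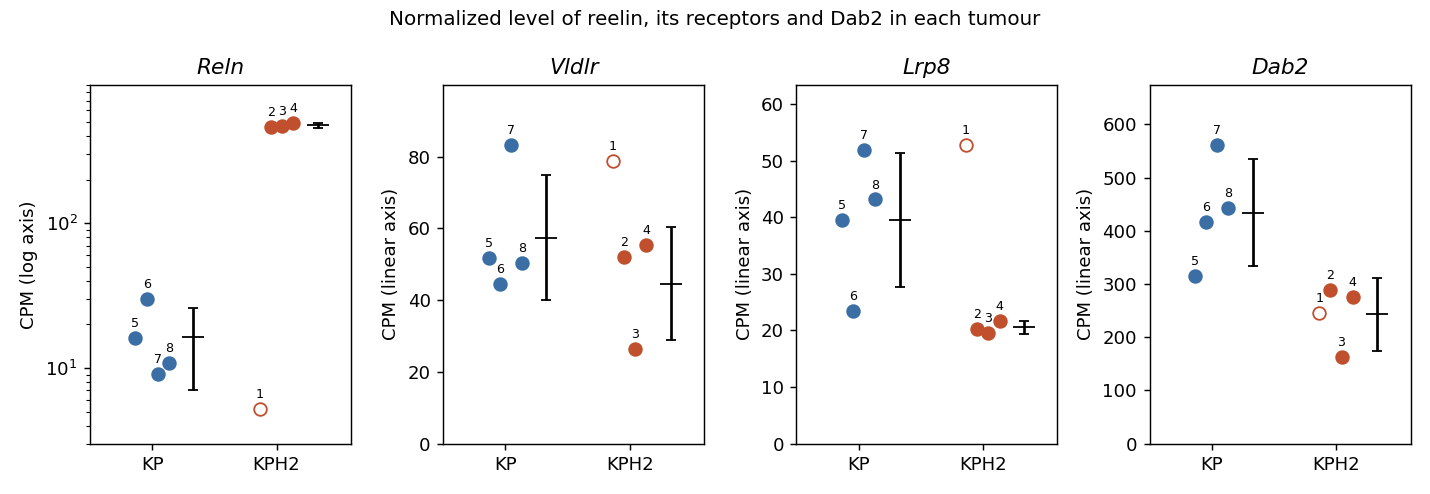
Level of Reln, Vldlr, Lrp8 and Dab2 in each tumour, in CPM, with a log axis for Reln and linear axes from 0 for the others. Points are tumours marked with their number, the open circle is KPH2 tumour 1, and bars give mean ± SD of the 4 KP tumours and of KPH2 tumours 2 to 4. Reln lies at 461 to 493 CPM in KPH2 tumours 2 to 4 and at 5.19 to 29.9 CPM in the other 5.

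None of the 3 partners that could be tested (Vldlr, Lrp8 and Dab2) passed the adjusted threshold, beside 1.96% of all 14867 genes tested that did. At an unadjusted p under 0.05, 2 of the 3 passed, beside 17.8% of all genes. DESeq2 called 2 of the 3, beside 7.20% of the genes to which it gave an adjusted p. All 3 were lower on average in KPH2 tumours 2 to 4. Lrp8 and Dab2 had every one of these 3 tumours below every KP tumour, a pattern shown by 8.15% of all genes. With all 8 tumours Dab2 alone kept it, beside 4.39% of genes.

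Vldlr (chromosome 19, 27216480 to 27254231) encodes the very low density lipoprotein receptor, which takes up triglyceride-rich lipoproteins as well as binding reelin. KP tumours 5 to 8 had 51.7, 44.6, 83.3 and 50.3 CPM. KPH2 tumours 2 to 4 had 51.9, 26.5 and 55.5 CPM, and KPH2 tumour 1 had 78.7 CPM. KPH2 tumours 2 and 4 lay within the KP range and KPH2 tumour 3 below it. The means were 57.5 ± 17.5 (SD, n = 4) and 44.6 ± 15.8 CPM (SD, n = 3), with a log2 fold change of -0.36 (SE 0.31, adjusted p = 0.593, edgeR). Adding KPH2 tumour 1 moved it to -0.11 (adjusted p = 0.910, edgeR). With the mean log2 CPM of the skeletal muscle markers as a covariate the sign turned, to 0.35 (SE 0.44, adjusted p = 0.928, edgeR). This covariate itself separated KP tumours from KPH2 tumours 2 to 4, so a shift under it cannot be assigned to muscle content.

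Lrp8 (chromosome 4, 107802200 to 107876840) encodes APOER2, the other signalling receptor of reelin. Its level in KP tumours 5 to 8 was 39.6, 23.5, 51.9 and 43.2 CPM. In KPH2 tumours 2 to 4 it was 20.3, 19.51 and 21.8 CPM. The lowest KP tumour, at 23.5 CPM, was close to the highest of these 3. The means were 39.5 ± 11.9 (SD, n = 4) and 20.5 ± 1.13 CPM (SD, n = 3), with a log2 fold change of -0.95 (SE 0.26, unadjusted p = 0.00543, adjusted p = 0.106, edgeR). The highest level of the 8 was that of KPH2 tumour 1, 52.8 CPM, and its inclusion shrank the log2 fold change to -0.46 (adjusted p = 0.604, edgeR). DESeq2 placed the difference past the threshold (adjusted p = 0.0221), as did edgeR without KP tumour 6 (log2 fold change -1.13, adjusted p = 0.0453). With the skeletal muscle covariate the log2 fold change was -0.89 (SE 0.45, adjusted p = 0.729, edgeR).

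Dab1 (chromosome 4, 103619500 to 104744844), the adaptor that carries the reelin signal in neurons, was not detected above the limit. It had 1 count in KP tumour 8 and 1 in KPH2 tumour 4 and none in the other 6 libraries. Both values, 0.0755 and 0.113 CPM, were under the limit of 3 counts, so no fold is given and the low-count filter removed Dab1. The data do not show whether low levels were present.

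Dab2 (chromosome 15, 6299788 to 6440715), the endocytic adaptor, had the highest level per kilobase of the 5 in KP tumours. KP tumours 5 to 8 had 316, 417, 562 and 442 CPM. KPH2 tumours 2 to 4 had 289, 164 and 276 CPM, and KPH2 tumour 1 had 246 CPM. All 4 KPH2 tumours lay below all 4 KP tumours. The means were 434 ± 101 (SD, n = 4) and 243 ± 68.9 CPM (SD, n = 3), with a log2 fold change of -0.84 (SE 0.26, unadjusted p = 0.0110, adjusted p = 0.141, edgeR). Over all 8 tumours it was -0.83 (SE 0.23, adjusted p = 0.176, edgeR), so KPH2 tumour 1 did not move it. DESeq2 called it (adjusted p = 0.0481). With the skeletal muscle covariate, which itself separated the genotypes, the log2 fold change was -0.27 (SE 0.40, adjusted p = 0.938, edgeR). All 10 macrophage markers had negative log2 fold changes, 0 called by edgeR (beside 1.96% of all genes), 5 at an unadjusted p under 0.05 (beside 17.8%) and 1 called by DESeq2 (beside 7.20%), and summed to 1747 to 3024 CPM in KP tumours, 1174 to 1893 CPM in KPH2 tumours 2 to 4 and 1396 CPM in KPH2 tumour 1. All 10 endothelial markers were also negative, with 0, 5 and 3 by the same 3 criteria and the same shares over all genes, at 361 to 622, 305 to 341 and 258 CPM. The part of these cells in the Dab2 values was not tested.

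**Figure D2:**
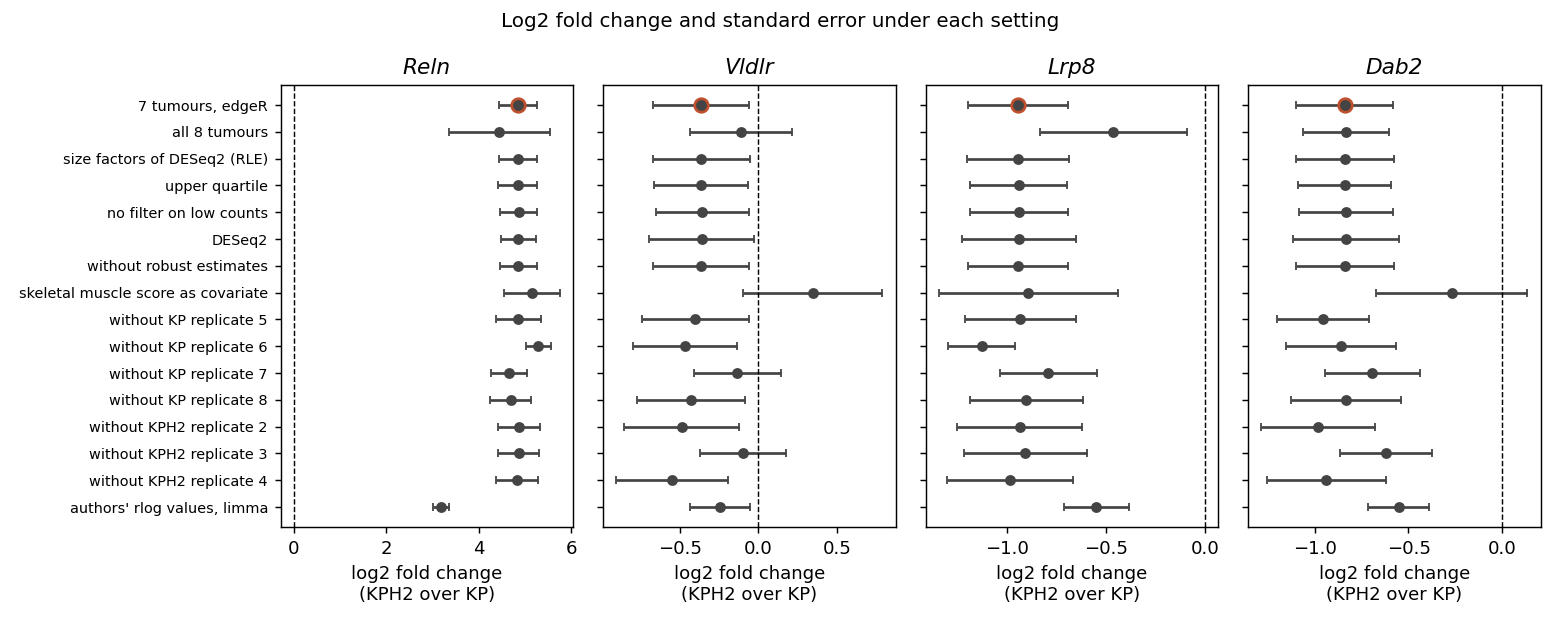
Log2 fold change of KPH2 over KP (x axis, points) with its standard error (bars) for Reln, Vldlr, Lrp8 and Dab2 under each processing setting (y axis). The larger red point is the edgeR fit over 7 tumours, and dashed lines mark 0. Reln stays between 3.18 and 5.29, Lrp8 and Dab2 stay below 0 and Vldlr crosses 0 with the skeletal muscle covariate.

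Levels were compared between genes per kilobase of the longest coding transcript in GENCODE M21, from 4555 bases for Lrp8 to 11699 bases for Reln. In KP tumours Dab2 had 93.1 ± 21.7 CPM per kb (SD, n = 4), followed by Lrp8 at 8.68 ± 2.61, Vldlr at 7.21 ± 2.20 and Reln at 1.41 ± 0.806, and Dab1 was under the limit. Lrp8 and Vldlr overlapped in this order and the others did not. In KPH2 tumours 2 to 4 the order was Dab2 at 52.1 ± 14.8 CPM per kb (SD, n = 3), Reln at 40.5 ± 1.46, Vldlr at 5.60 ± 1.98 and Lrp8 at 4.51 ± 0.248. Dab2 and Reln overlapped there, since KPH2 tumour 3 had 35.1 for Dab2 and 39.9 for Reln, and so did Vldlr and Lrp8. The ratio of ligand to receptor, Reln over Vldlr per kilobase, was 0.0740 to 0.456 in KP tumours, 6.05 to 11.99 in KPH2 tumours 2 to 4 and 0.0450 in KPH2 tumour 1.

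The genes around the pathway were taken from 7 lists of 99 genes, of which 94 passed the low-count filter. By edgeR, 1 rose and 1 fell, or 2.13%, close to the 1.96% of all genes. At an unadjusted p under 0.05 there were 15, against 17.8% of all genes, and DESeq2 called 9, against 7.20%. The median log2 fold change was -0.04, beside -0.02 over all genes, with 41 positive and 53 negative.

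Among 11 other LDL receptor family members, which include receptors with tails able to bind Dab adaptors, 1 fell. It was Lrp12, at 131 ± 12.4 CPM in KP (SD, n = 4) and 67.9 ± 11.5 in KPH2 tumours 2 to 4 (SD, n = 3), with a log2 fold change of -0.95 (SE 0.16, adjusted p = 0.0325, edgeR). KPH2 tumour 1 had 95.3 CPM, also below every KP tumour, and with it the call was lost (-0.81, adjusted p = 0.125, edgeR). The call was also lost with the muscle covariate, where the log2 fold change was larger, at -1.38 (SE 0.24, adjusted p = 0.187, edgeR). Leaving out any 1 tumour but KP tumour 5 lost it too (adjusted p up to 0.105, edgeR). Lrp5, a Wnt co-receptor, had a log2 fold change of 0.71 (adjusted p = 0.119, edgeR), and the list's median was -0.29.

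Among 16 cytoskeletal effectors tested, 1 rose. Map2, a microtubule-associated protein of dendrites, was at 20.5, 15.3, 12.01 and 7.999 CPM in KP tumours 5 to 8 and at 46.5, 122 and 155 CPM in KPH2 tumours 2 to 4. KPH2 tumour 1 had 14.5 CPM, within the KP range. The log2 fold change was 2.95 (SE 0.45, adjusted p = 0.0257, edgeR), and 2.60 with KPH2 tumour 1 added, where the call was lost (adjusted p = 0.169, edgeR). The call was also lost with the muscle covariate, where the log2 fold change was 3.30 (SE 0.65, adjusted p = 0.269, edgeR). Leaving out any 1 tumour but KP tumour 5 or KPH2 tumour 2 lost it too (adjusted p up to 0.0708, edgeR). Its relative Map1b had 532 ± 64.8 CPM (SD, n = 4) and 838 ± 67.9 (SD, n = 3), with 807 CPM in KPH2 tumour 1 and a log2 fold change of 0.65 (adjusted p = 0.0741, edgeR). The list's median was 0.08. The summed neuron markers were 54.9 to 222 CPM in KP tumours, 266 to 436 in KPH2 tumours 2 to 4 and 64.8 in KPH2 tumour 1, with 0 of 5 called by edgeR (beside 1.96% of all genes) or DESeq2 (beside 7.20%) and 1 at an unadjusted p under 0.05 (beside 17.8%). Their part in the Map2 values was not tested.

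No gene of the other 5 lists was called by edgeR. Of 11 other ligands and co-receptors, 3 had an unadjusted p under 0.05, as did 17.8% of all genes. Integrin alpha 3 (Itga3), whose integrin binds reelin, had 12.1 to 84.5 CPM in KP tumours and 167 to 291 in KPH2 tumours 2 to 4, with a log2 fold change of 2.63 (adjusted p = 0.0820, edgeR), and Efnb1, an ephrin, had 0.85 (adjusted p = 0.0916, edgeR). Of 7 proteases able to cut reelin, including Adamts2 at 0.91 (adjusted p = 0.394, edgeR) and Adamts3 at -0.54 (adjusted p = 0.566, edgeR), none had an unadjusted p under 0.05. Of 20 kinases and adaptors below Dab1, 4 did. The adaptor Nck2 had 1.12 (adjusted p = 0.0646, edgeR) and the PI3 kinase subunit Pik3r2 had 0.73 (adjusted p = 0.125, edgeR). Among 11 genes for turnover and folding of Dab1 and the receptors, Lrpap1, a chaperone of the receptor family, had -0.37 (adjusted p = 0.311, edgeR). Of 18 endocytic partners of Dab2, 1 had an unadjusted p under 0.05, and the clathrin adaptor subunits Ap2a2 and Ap2b1 had -0.35 (adjusted p = 0.252, edgeR) and 0.27 (adjusted p = 0.321, edgeR).

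**Figure D3:**
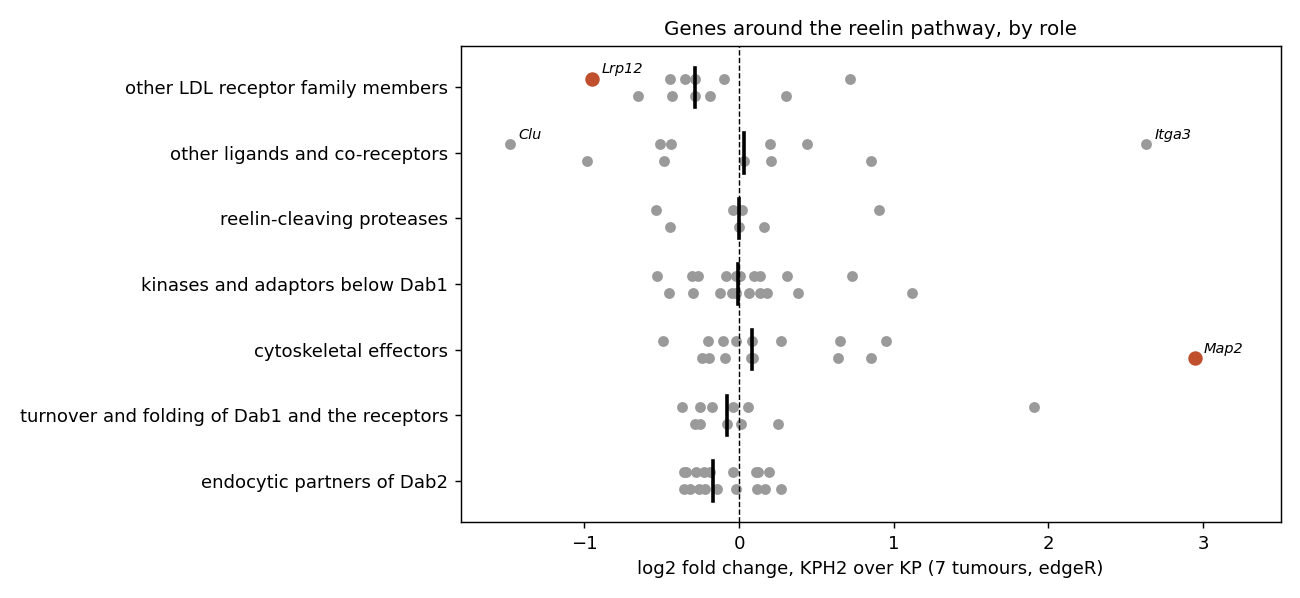
Log2 fold change of KPH2 over KP over 7 tumours (x axis) for each gene of 7 pathway lists (y axis). Red points passed an adjusted p of 0.05, vertical bars are list medians, and some genes with a large change are named. Only Map2 at 2.95 and Lrp12 at -0.95 are red, and medians lie between -0.29 and 0.08.

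The genes on either side of Reln were read to see whether its neighbourhood moved with it. On the lower side, Dnajc2 and Psmc2 had log2 fold changes of 0.15 (adjusted p = 0.692, edgeR) and 0.17 (adjusted p = 0.646, edgeR), and Slc26a5 had too few counts to be tested. On the higher side, Orc5 had 0.20 (adjusted p = 0.621, edgeR) and Gm17434 had -0.76 (adjusted p = 0.639, edgeR). Lhfpl3, 401 kb from Reln, went the other way, with 9.58, 8.35, 1.63 and 3.40 CPM in KP tumours 5 to 8 and 0, 0.400 and 0.113 CPM in KPH2 tumours 2 to 4. KPH2 tumour 1 had 4.16 CPM. Lhfpl3 passed the low-count filter only through the KP tumours, so its difference is given as values, without a test.

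The levels of other genes were compared with that of Reln by Pearson correlation of log2 CPM over the 8 tumours. Depth and genotype differ between the tumours, Reln falls into a high and a low cluster, and r is given only as an order of likeness. The 10 most alike of 14978 genes were AI467606 (r = 0.988), Hoxa6, Lama5, Olfr805, Lamb3, Spock1, Myf5, Qrfp, Col18a1 and Eno3 (r = 0.970). Hoxa6, Olfr805 and Spock1 were at or under the limit of 3 counts in every KP tumour and at 0 in KPH2 tumour 1. Lamb3 was at most 0.707 CPM in KP tumours. These genes passed the low-count filter only through KPH2 tumours 2 to 4, where Reln is high, so their likeness is a description. Lama5 and Lamb3 encode laminin chains and Col18a1 a basement membrane collagen. Lama5 was at 34.9 to 47.7 CPM in KP tumours, 440, 360 and 527 CPM in KPH2 tumours 2 to 4 and 25.6 CPM in KPH2 tumour 1. Myf5, a myogenic transcription factor, was at 0 to 2.41 CPM in KP tumours and 47.9, 15.9 and 18.4 CPM in KPH2 tumours 2 to 4. Over the 7 tumours without KPH2 tumour 1, 2 of the 10 stayed among the 10 most alike. The lowest r of the 10 was then 0.967 (Qrfp, rank 28), and 61 genes had r over 0.95.

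Markers of other cell types also differed between these tumours. The 16 skeletal muscle markers all had positive log2 fold changes, with 2 called by edgeR (beside 1.96% of all genes), 15 at an unadjusted p under 0.05 (beside 17.8%) and 12 called by DESeq2 (beside 7.20%), and summed to 1740 to 3156 CPM in KP tumours, 4075 to 18443 in KPH2 tumours 2 to 4 and 1428 in KPH2 tumour 1. With a muscle covariate, which itself separates the genotypes, the fitted log2 fold change of Reln was 5.15 (SE 0.60), given as a description. Of 6 lymphatic endothelium markers, 4 were positive and 0 were called by edgeR (beside 1.96% of all genes). All 6 had an unadjusted p under 0.05 (beside 17.8%) and DESeq2 called 4 (beside 7.20%). Their sum overlapped between the groups, at 175 to 555, 219 to 245 and 202 CPM, with Pdpn the largest part in every KP tumour and in KPH2 tumours 2 to 4. Pdpn and Lyve1 were lower on average in those 3, and Flt4 was at 18.9 to 21.2 CPM in KP tumours and 26.0, 56.1 and 25.4 CPM in them. Pdpn had 258 ± 101 CPM (SD, n = 4) and 138 ± 29.7 (SD, n = 3), and Lyve1 had 67.3 ± 63.5 and 17.5 ± 7.11. Prox1, the transcription factor that defines these cells, was at 0.302 to 1.56 CPM in KP tumours, 2.61, 11.4 and 2.59 CPM in KPH2 tumours 2 to 4 and 0.320 CPM in KPH2 tumour 1. The lymphatic genes Mmrn1 and Ccl21a were at most 1.86 and 1.63 CPM in KP tumours, and stood at 11.8, 31.1 and 6.65 CPM and at 7.74, 29.9 and 6.65 CPM in KPH2 tumours 2 to 4. KPH2 tumour 3 was highest for all 3 genes, while Reln was within 461 to 493 CPM in these tumours. Osteoblast and osteocyte markers summed to 54.6 to 69.6, 89.9 to 139 and 76.1 CPM, with Sost and Bglap2 at 0. Most of this sum was Runx2 (55.1 ± 4.56 CPM in KP and 77.2 ± 18.0 in KPH2 tumours 2 to 4), 6 of the 11 markers had 3 counts or fewer in every tumour, and Alpl was at a mean of 0.772 and 0.311 CPM. The 3 markers tested, Runx2, Phex and Dmp1, all had positive log2 fold changes. Phex was at 2.67 to 9.28 CPM in KP tumours, 7.81 to 18.6 CPM in KPH2 tumours 2 to 4 and 8.79 CPM in KPH2 tumour 1. Dmp1, an osteocyte matrix protein, was at 0.520 to 1.56 CPM in KP tumours, 26.3, 23.1 and 15.6 CPM in KPH2 tumours 2 to 4 and 11.03 CPM in KPH2 tumour 1. Its log2 fold change was 4.57 (SE 0.39), and 4.38 with all 8 tumours. Epithelial markers summed to 4.01 to 7.35, 50.1 to 525 and 58.3 CPM, with Krt5 and Krt14 at 0, and Krt18 was higher in KPH2 tumours 1 to 4 than in any KP tumour. Krt8 was at most 2.01 CPM in KP tumours, 1.44 CPM in KPH2 tumour 1 and 262, 6.90 and 283 CPM in KPH2 tumours 2 to 4. Mesenchyme markers, which a sarcoma should express, summed to 9667 CPM or more in every tumour. Of these Pdgfra was at 997 ± 342 CPM in KP tumours (SD, n = 4), 245 ± 25.6 in KPH2 tumours 2 to 4 (SD, n = 3) and 639 CPM in KPH2 tumour 1. Prox1, Mmrn1, Ccl21a, Pdpn, Lyve1, Flt4, Krt8, Krt18, Runx2, Alpl, Phex, Pdgfra and Dmp1 were chosen for mention once their values were known, so they are given without a test. The part of any of these cell types in the Reln values was not tested.

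**Figure D4:**
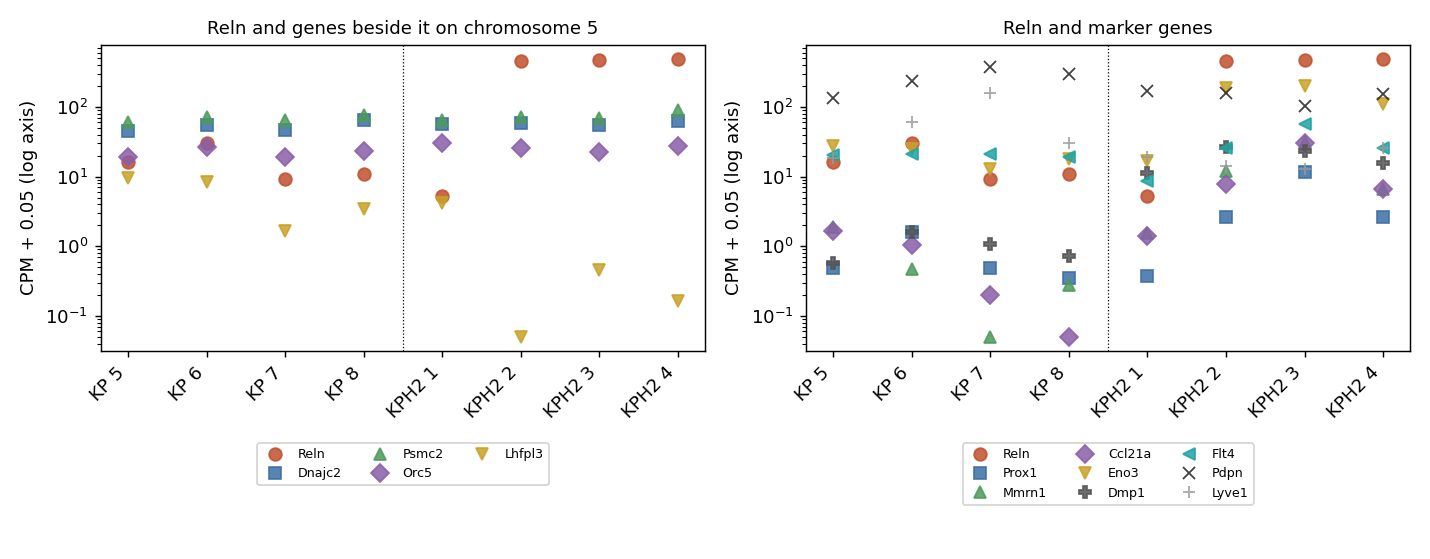
CPM + 0.05 on a log axis in each of the 8 tumours for Reln with neighbouring genes on chromosome 5 (left) and with marker genes (right). The dotted line separates KP from KPH2 tumours. In KPH2 tumours 2 to 4 Reln is at 461 CPM or more, Lhfpl3 is at 0.400 CPM or less and Prox1, Mmrn1, Ccl21a, Flt4, Eno3 and Dmp1 are above their levels in the other 5 tumours but Pdpn and Lyve1 are not, while Dnajc2, Psmc2 and Orc5 keep similar levels in all 8.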

How the data were processed

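RNA-seq libraries came from 4 KP and 4 KPH2 tumours. Per the labels and the study's methods, reads were made with a stranded, ribosomal-RNA-depleted kit, aligned to GRCm38 with STAR 2.4 and counted per RefSeq gene with HTSeq 0.6.1 from unique alignments, and the authors deposited raw counts for 8 tumours. The authors also deposited log2 values from the rlog transformation of DESeq2 1.6, in tables of 7 and 8 tumours. Replicates are separate tumours, and replicate numbers are not shared between genotypes.

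The fit used edgeR 4.0.16 in R 4.3.3 (TMM, minimum count 10, minimum total count 15, robust quasi-likelihood test), KP 5 to 8 against KPH2 2 to 4, with Benjamini-Hochberg adjustment over 14867 genes and a threshold of 0.05. The unit CPM was computed with TMM library sizes over all 8 tumours, with a prior count of 2 for log2 values. Reln entered the fit like every other gene, and its p is not given because it was chosen on this contrast. The scripts were tested on simulated data. Alternatives were all 8 tumours, other scalings, no filter, DESeq2 1.42.0, limma 3.58.1 on rlog values, a skeletal muscle covariate and leaving out each tumour. Positions and promoter sequences came from RefSeq (GRCm38.p6), and all 5 members matched by symbol. Named genes were the 5 members, Epas1, called genes and the 2 with the smallest p of each pathway list, the 10 genes most like Reln, the 3 nearest coding genes on each side, and marker lists by summed level. The members and lists were chosen with earlier results of these data known. Of the other marker lists, 1 of 7 Schwann cell, 1 of 7 pericyte and smooth muscle and 1 of 6 mesenchyme markers tested were called by edgeR, beside 1.96% of all genes, and 2, 2 and 1 by DESeq2, beside 7.20%. Some items set by these rules are not reported here.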

Additional observations from a re-analysis of the deposited data

Results flagged for a closer look

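Dixon's test at the 95% level was applied to 65 groups of 4 tumours over the named genes. In 10 of them a tumour lay far from the other 3. That level flags about 1 group in 20 only where genes are chosen without regard to their values. Reln was chosen on these values and 10 of the genes for their likeness to it, so their places here are descriptions. Without them there were 5 of 46. Some of the remaining genes were named for a small p in the contrast without KPH2 tumour 1, and all groups share the same 8 tumours. Neither count is therefore compared with that share. In 6 of the 10 the tumour was KPH2 tumour 1 among the 4 KPH2 tumours. Reln was at 5.19 CPM with a gap of 0.934 of the group's range, Lrp8 at 52.8 CPM with 0.933 and Lhfpl3 at 4.16 CPM with 0.904. Of the genes most like Reln, AI467606 was at 4.48 CPM (0.929), Hoxa6 at 0 (0.900) and Olfr805 at 0 (0.848). The other 4 were among the KP tumours: Epas1 at 59.2 CPM in KP tumour 5 (0.867), Efnb1 at 21.7 CPM in KP tumour 8 (0.871), Ap2b1 at 183 CPM in KP tumour 7 (0.915) and Myf5 at 2.41 CPM in KP tumour 6 (0.938). The cause was not tested.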

How the results depend on the processing

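No paired analysis was possible because KP and KPH2 tumours share no replicate number. Of 89 alternatives, 63 gave the same direction and side of the threshold or a value within the spread, 22 moved, 3 passed the threshold and 1 turned sign. With all 8 tumours, edgeR called 1 gene in place of 292 and 0 in place of 2 pathway genes. Without the low-count filter 4 pathway genes were called. DESeq2 called 1175 genes and 9 pathway genes, with Lrp8 at -0.94 (adjusted p = 0.0221) and Dab2 at -0.83 (adjusted p = 0.0481) on the log2 scale. With the skeletal muscle covariate, which itself separated the genotypes, 3 genes and 0 pathway genes were called, and Vldlr turned to 0.35. Leaving out each tumour gave 55 to 349 genes and 0 to 4 pathway genes, with every tumour but KP 5 moving the first by over 1.5 times (55 without KPH2 2, 73 without KP 7) and all 7 moving the second. It gave -1.13 to -0.79 for Lrp8, -0.98 to -0.62 for Dab2, -0.55 to -0.10 for Vldlr and 4.66 to 5.29 for Reln. On the authors' rlog values the Reln difference was 3.18. Adjusted p ranged over the alternatives from 0.570 to 0.928 for Vldlr, 0.0221 to 0.729 for Lrp8 and 0.0481 to 0.938 for Dab2. Of the 10 genes most like Reln, 2 remained without KPH2 tumour 1, and the lowest r of the 10 was then 0.967. The cause was not tested. Depth limits Dab1, which had fewer than 3 counts in every library.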
